A study of Mus musculus with 2 samples.

Results

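The genes described here are the class III receptor tyrosine kinases Pdgfra, Pdgfrb, Kit and Csf1r and their ligands Pdgfa, Pdgfb, Pdgfc, Pdgfd, Kitl and Csf1. They were chosen by name: every probe whose gene symbol in the authors' table is 1 of these 10 was taken, which gave 24 of the 56605 probes on the array, for 10 of 26878 named genes. Expression was measured in a mouse glioblastoma stem cell line, which was derived as neurospheres from tumours that an SB transposon had induced and was kept in serum-free Neurobasal medium with B27, N2 and 10 ng/ml each of EGF and bFGF. The medium as the labels list it had no added PDGF, KIT ligand or CSF1. Both groups carried a stably integrated lentiviral short hairpin, which was a non-target hairpin in the control group and a hairpin against Stat5b in the knockdown group. Each group was 1 single-colour array of total RNA, so there were no replicates. Every difference below describes 2 arrays, with no test and no spread between cultures. The results hold for 1 cell line, and the labels do not say how many clones or hairpin sequences were used. The knockdown label was checked on Stat5b itself. Its brighter probe had a signal of 1991 in the control and 498 in the knockdown, 25.0% of control, and its dimmer probe gave 14.7 and 7.49, the latter not well above background.

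These receptors span the membrane, with immunoglobulin-like domains outside the cell and a kinase domain, split by an insert, inside it. A dimeric ligand brings receptor molecules together, they phosphorylate one another, and the phosphotyrosines dock adaptors that lead to RAS, PI3-kinase and phospholipase C gamma. STAT5 proteins are among the transcription factors that such receptors can activate. In the brain, PDGFRA is known as a receptor of oligodendrocyte precursors and a frequent target of amplification in glioma. PDGFRB is known there as a marker of pericytes, and CSF1R as the receptor on which microglia depend. KIT is known as a receptor of mast cells, melanocytes and germ cells.

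On the knockdown array Pdgfrb was more than 2-fold higher than on the control array. The other measured genes differed by less than 2-fold: Pdgfra, Pdgfc, Csf1 and Csf1r were higher, and Kitl, Pdgfb and Pdgfa were lower. Kit and Pdgfd were not well above background on either array. Of the 24 probes, 15 passed the scanner's flag for signals well above background on both arrays and 9 on neither, and those 9 gave signals from 2.44 to 6.06. This left 8 of the 10 genes measured. A gene's value is the mean log2 difference, knockdown minus control, of those of its probes that both arrays read well above background. Genes that differed by 2-fold or more were counted, and this is a rule of size, not a test. By that rule 1 of the 8 genes, Pdgfrb, was higher, against a background of 3.67% of all 16354 measured genes, and 0 were lower, against 2.41%. The median difference of the 8 was 0.25, against 0.01 over all measured genes. Above 0 were 5 of the 8, against 51.2% of all measured genes, and below 0 were 3, against 48.8%. The 3 measured receptors were all above 0, with a median of 0.89, while 3 of the 5 measured ligands were below 0, with a median of -0.54. These counts are small, and no call for receptors or ligands as groups is made from them.

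**Figure D1:**
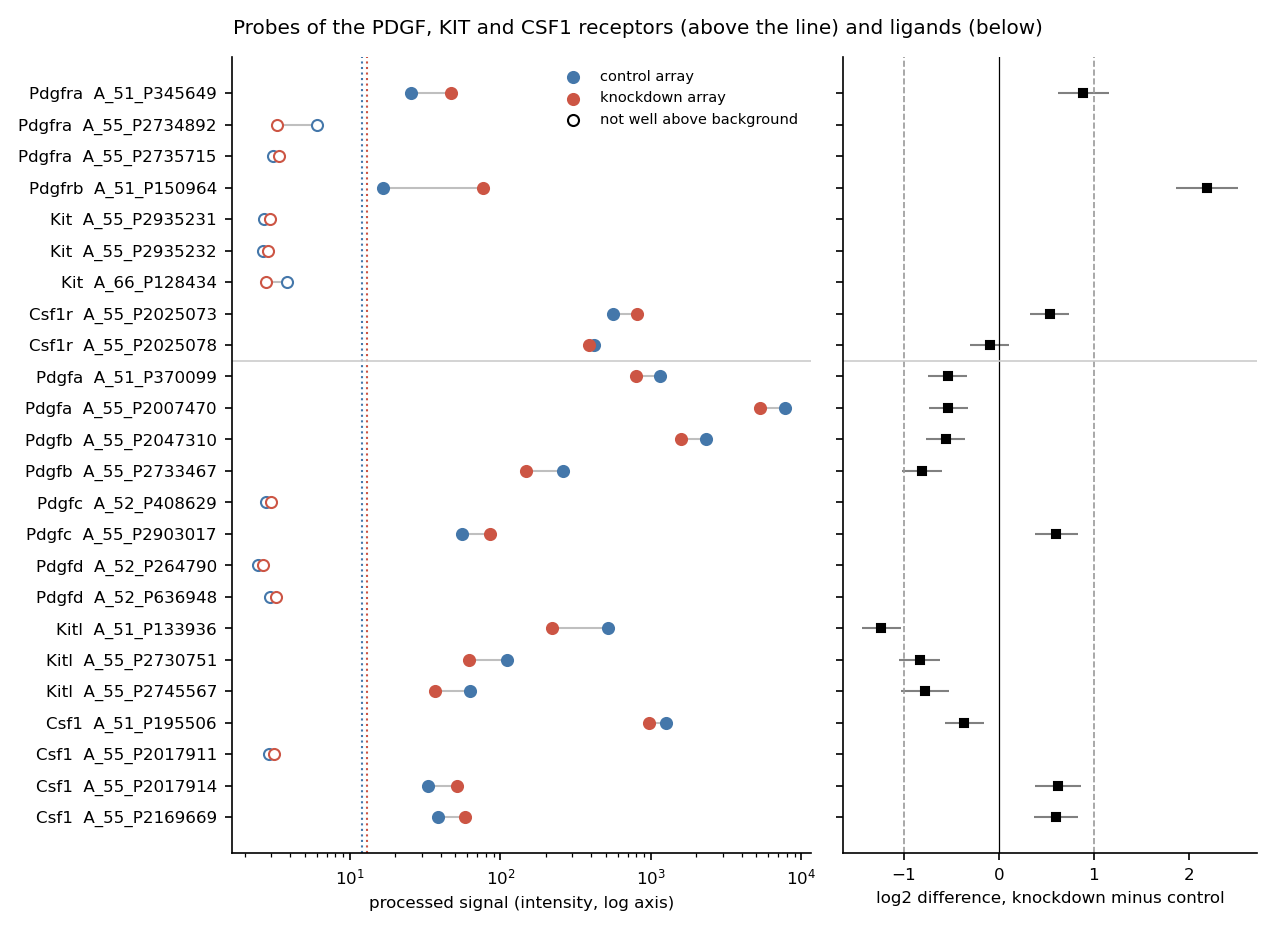
Left, processed signal (intensity, log axis) of each of the 24 probes on the control (blue) and knockdown (red) arrays; open points were not well above background, and the dotted lines mark the lowest signal called well above background on each array, 12.098 in the control and 12.989 in the knockdown. Right, the log2 difference of the 15 measured probes with the scanner software's error as a bar and dashed lines at 2-fold; Pdgfrb lies past 2-fold on the higher side and 1 Kitl probe on the lower side.

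Across all measured genes the log2 levels of the arrays correlated at r = 0.982; genes are not independent replicates. The 75th percentile, to which each array was scaled, was a signal of 493.3 and 493.7. The error given after ± is the scanner software's own and does not cover differences between cultures. The log2 differences of separate probes had an SD of 0.310 within genes, over the 7244 genes with several measured probes, and those of replicate spots of 1 probe had an SD of 0.0558. In the last 64 rows of spots, 7.57% of measured probes were past 2-fold, against 5.43% elsewhere, and 3 of the 24 probes lay there. The marker genes of neural stem cells did not all match the cell type label: Nes and Vim were bright, with signals of 18174 and 15868 for Nes and 96090 and 88538 for Vim, but neither array read Sox2, Fabp7 or Hes5 well above background.

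The probe sequences show which stretches of the ligand transcripts the arrays read. Each probe is 60 bases long, and those below are printed as the authors' table gives them. The first 2 are the Kitl probes annotated to transcript variant 2, which are read beside the Kitl difference below. The others belong to Pdgfa, a ligand measured by both of its probes, and to Pdgfd, a ligand measured by neither.
Kitl A_55_P2730751: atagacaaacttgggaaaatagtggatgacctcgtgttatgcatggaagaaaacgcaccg
Kitl A_55_P2745567: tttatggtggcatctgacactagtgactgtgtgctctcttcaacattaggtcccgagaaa
Pdgfa A_51_P370099: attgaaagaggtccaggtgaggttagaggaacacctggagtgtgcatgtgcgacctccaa
Pdgfd A_52_P264790: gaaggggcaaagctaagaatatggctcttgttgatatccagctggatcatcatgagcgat
The 24 probes had GC contents from 35.0% to 51.7%, with a median of 38.3%, against a median of 41.7% over all probes. Probes of 1 gene shared no run of more than 7 bases, except for a pair of Csf1 probes that shared 31. Apart from that pair, the probes of a gene therefore read separate stretches of its transcripts.

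Pdgfrb, which encodes the receptor that binds PDGF-BB and PDGF-DD, had the largest difference of the 8 genes. Its only probe, annotated to transcript variant 2, had a signal of 16.6 in the control and 76.1 in the knockdown, which is 4.58-fold higher, a log2 difference of 2.19 ± 0.33. The raw median signals were 55 over a local background of 31 in the control and 111 over 30.0 in the knockdown. The control signal thus lay near the lowest that was called well above background, 12.098. As high or higher were 38 of all measured genes (0.23%), Pdgfrb included. Large differences are more frequent among dim genes: of the 1571 genes whose mean level lay within 0.5 log2 units of that of Pdgfrb, 8.78% were at least 2-fold higher, and 11 of them (0.70%) were as high as Pdgfrb or higher. With another background correction, normexp with an offset of 50, the difference was 0.74 and no longer reached 2-fold.

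Pdgfra, which encodes the receptor that binds PDGF-AA, PDGF-BB and PDGF-CC, was read well above background by 1 of its 3 probes, the one annotated to transcript variant 2. That probe had a signal of 25.3 in the control and 46.9 in the knockdown, a 1.85-fold higher level (log2 difference 0.89 ± 0.27). It lay in the last 64 rows of the array, so without those rows Pdgfra had no value. The probes annotated to variants 5 and 4 gave 6.06 and 3.27, and 3.09 and 3.37, and none of these 4 signals was well above background. Of all measured genes 4.97% were as high as Pdgfra or higher, and of the 1573 genes of similar level 11.2% were. The difference was 0.25 after normexp and 0.04 when the dim probes were averaged in, so its size depended on how dim signals were treated.

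Kit, the receptor of KIT ligand, had 3 probes, and none was well above background. They gave 2.70 and 2.93, 2.66 and 2.87, and 3.80 and 2.79 in the control and the knockdown. No difference can be read from such signals, and a Kit transcript below this limit was not detectable. In the RefSeq gene order of assembly GRCm38 Kit lies near Pdgfra on chromosome 5, with 4 annotated genes between them, 0 of them protein-coding.

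Csf1r, the receptor of CSF1 and IL-34, was well above background with both of its probes. A_55_P2025073 had a signal of 556 in the control and 807 in the knockdown, a difference of 0.54 ± 0.20. A_55_P2025078 gave 417 and 389.8, a difference of -0.10 ± 0.20. The probes thus differed in sign, with a mean of 0.22 ± 0.14, and single-probe differences had an SD of 0.310 within genes. Csf1r directly neighbours Pdgfrb on chromosome 18, with 0 annotated genes between them, and neither Csf1r probe reached the 2-fold rule that Pdgfrb passed.

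Kitl, the ligand of KIT, also called stem cell factor, had the lowest difference of the 8 genes, and all 3 of its probes were lower on the knockdown array. The probe annotated to transcript variant 1 had a signal of 518 in the control and 219.6 in the knockdown, which is 2.36-fold lower (log2 difference -1.24 ± 0.20). The variant 2 probe A_55_P2730751 gave 109.8 and 61.6, a difference of -0.83 ± 0.22. The other variant 2 probe, A_55_P2745567, gave 63.1 and 36.8, a difference of -0.78 ± 0.25. It lies in the last 64 rows, and without those rows Kitl differed by -1.04, past 2-fold. Over the 3 probes the difference was -0.95 ± 0.13, or 51.8% of control, just short of the 2-fold rule. As low or lower were 446 of all measured genes (2.73%) and 80 of the 1941 genes of similar level (4.12%). Among single probes, 1 of the 15 measured was at least 2-fold lower and 1 at least 2-fold higher, against 2.62% and 3.16% of all measured probes. Kitl transcripts are known to encode a form that is readily shed and one that stays at the cell surface. Probes annotated to either variant were lower here. Whether a probe reads its annotated variant alone was not tested, so these forms were not measured apart.

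Pdgfa, which encodes the A chain of PDGF, was lower on the knockdown array with both of its probes. They had signals of 1147 and 789.8, and of 7721 and 5347, in the control and the knockdown. The log2 differences were -0.54 ± 0.20 and -0.53 ± 0.20, so the probes differed by less than their error, and the gene stood at 69.0% of control. Of all measured genes 9.83% were as low or lower.

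Pdgfb, which encodes the B chain, was also lower with both probes. A_55_P2047310 had signals of 2336 and 1584, a difference of -0.56 ± 0.20. A_55_P2733467 gave 260.4 and 149, a difference of -0.81 ± 0.21. Their mean of -0.69 ± 0.15 put Pdgfb at 62.2% of control, and 6.19% of all measured genes were as low or lower. Of the 5 genes here with several measured probes, 3 (Pdgfa, Pdgfb and Kitl) had every probe below 0, against 35.4% of all genes with several measured probes. The other 2 (Csf1r and Csf1) had probes of opposite sign, against 32.0%.

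Pdgfc and Pdgfd encode the chains with a CUB domain that a protease must remove before they bind their receptors. Pdgfc had 1 measured probe, with a signal of 55.9 in the control and 85.1 in the knockdown, a 1.52-fold higher level (log2 difference 0.60 ± 0.23). Its other probe gave 2.77 and 3.005, neither of them well above background. Of all measured genes 10.4% were as high as Pdgfc or higher, and of the 1705 genes of similar level 16.3% were. The Pdgfd probes gave 2.44 and 2.64, and 2.96 and 3.21, so the Pdgfd transcript was not detectable. Of the PDGF chains, A and B were thus lower, C was higher and D was not measured, each by less than 2-fold where it was measured.

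Csf1, the ligand of CSF1R, gave differences of opposite sign between probes annotated to different transcript variants. Whether each probe reads that variant alone was not tested, and the variant 1 probe was also far brighter than the others. The probe annotated to variant 1 had a signal of 1259 in the control and 978 in the knockdown, a difference of -0.37 ± 0.20. The probes annotated to variant 3 gave 33.2 and 51.2, and 38.2 and 58.1, with differences of 0.63 ± 0.24 and 0.60 ± 0.23. The variant 3 probes are the pair that shares 31 bases, so they are not separate readings. The remaining probe gave 2.88 and 3.12, neither of them well above background. The mean of 0.29 ± 0.13 carried the sign of the dim variant 3 probes, and with the brightest probe alone Csf1 differed by -0.37. Csf1 transcripts are known to encode secreted and cell-surface forms of the protein.

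**Figure D2:**
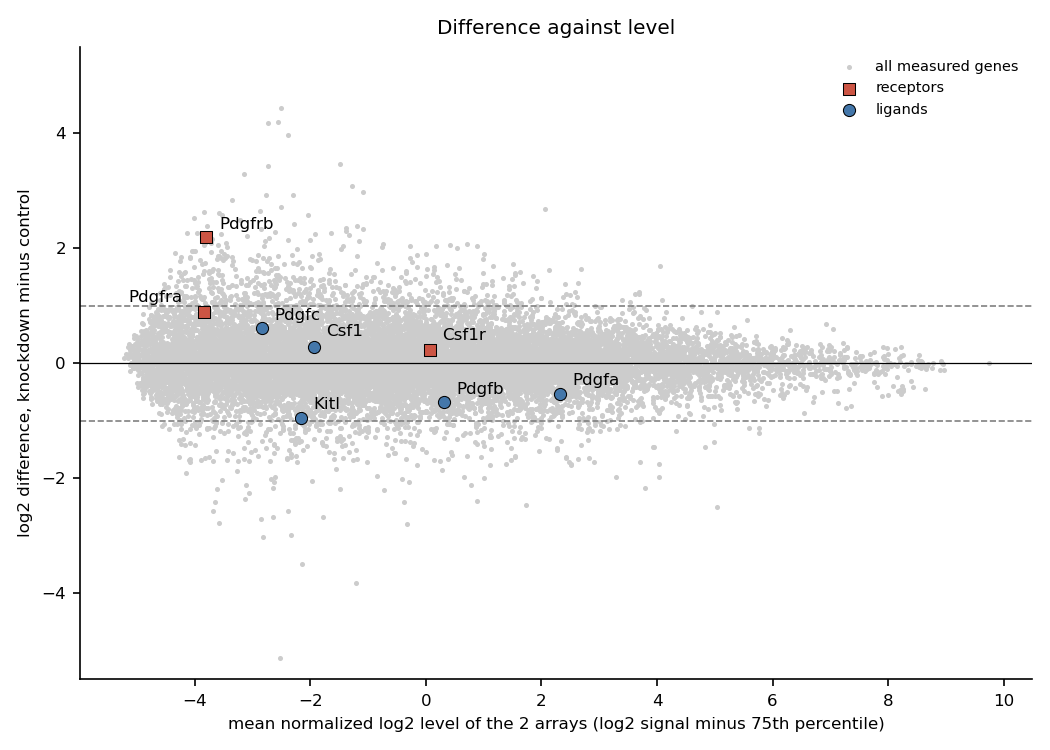
Log2 difference, knockdown minus control, against the mean normalized log2 level of the arrays (log2 signal minus the array's 75th percentile) for all 16354 measured genes (grey), the 3 measured receptors (red squares) and the 5 measured ligands (blue circles); dashed lines mark 2-fold. Pdgfrb (2.19) and Pdgfra (0.89) lie at the dim end, where grey points spread widely, while Pdgfb (-0.69) and Pdgfa (-0.54) lie at brighter levels.

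The 3 other scalings and sources of values moved none of the 8 genes by more than the SD over probes of 1 gene, while the normexp correction moved Pdgfra, Pdgfrb and Kitl by more than that, averaging in dim probes moved Pdgfra, and the choice or filter of probes moved Csf1 and Csf1r. Median scaling and the authors' table shift these genes by 1 constant, and choosing among measured probes cannot change a gene with only 1. Under the 10 processing alternatives Pdgfa stayed between -0.55 and -0.50 and Pdgfb between -0.69 and -0.52. Kitl ranged from -1.24 to -0.58 and Pdgfc from 0.31 to 0.61. Pdgfrb ranged from 0.74 to 2.20, Pdgfra from 0.04 to 0.89 and Csf1r from 0.19 to 0.54, all above 0. Csf1 ranged from -0.37 to 0.29 and was the only one of the 8 genes that had both signs.

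**Figure D3:**
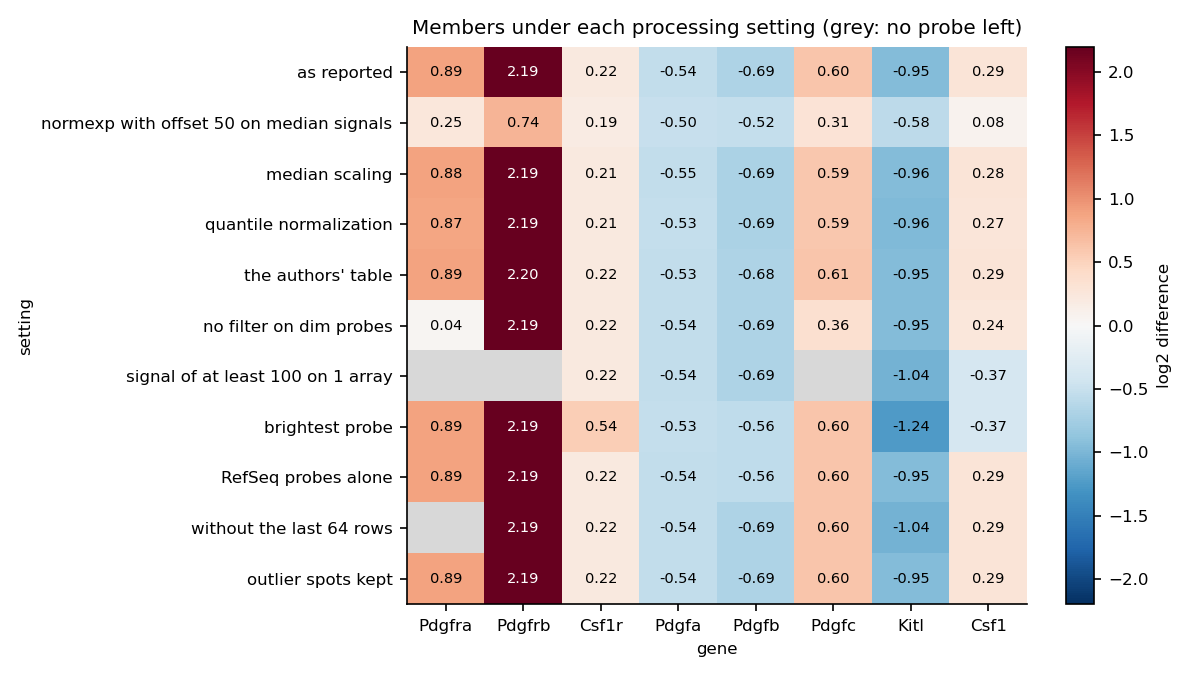
Log2 difference, knockdown minus control, of the 8 measured genes (columns) as reported and under each of the 10 processing alternatives (lines of the grid), with the value printed in each cell and grey where no probe was left. The columns of Pdgfa, Pdgfb and Kitl are blue throughout (below 0), and the Csf1 column holds both colours.

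The genes through which these receptors act were followed in 5 lists. In these, 74 of 76 genes were measured and 0 were at least 2-fold higher or lower, against 6.08% of all measured genes in either direction, and 37 lay above 0 and 37 below. Under 5 of the 10 processing alternatives 1 or 2 of these genes passed 2-fold, which were Cspg4 (1.24), Nrp1 (1.08), Plau (-1.07) and Dok2 (-1.69). The remaining class III receptor Flt3, its ligand Flt3l, and Il34, the second ligand of CSF1R, were all above 0, with a median of 0.39. Flt3l differed by 0.69 ± 0.12, with its 3 probes between 0.54 and 0.79. Flt3 differed by 0.39 ± 0.20, but its probes gave -0.18 and 0.96.

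Of the 24 adaptors and effectors that bind the phosphorylated receptors, all were measured, 14 above 0 and 10 below, with a median of 0.11. Plcg2, a phospholipase C gamma enzyme, had a signal of 6630 in the control and 3820 in the knockdown (log2 difference -0.80 ± 0.20). Pik3r1, the regulatory subunit of PI3-kinase that docks on PDGF receptors and KIT, gave 460.0 and 760.1 (0.72 ± 0.20), with its only probe in the last 64 rows. Of the 15 brakes on receptor signalling, 6 were above 0 and 9 below, with a median of -0.06. Dok2, an adaptor that recruits the GTPase-activating protein of RAS, gave 121 and 231 with 1 probe (0.93 ± 0.21). Its other probe, in the last 64 rows, gave 141 in the control and 7.06, not well above background, in the knockdown, so the probes of Dok2 opposed each other. Socs6, a suppressor of cytokine signalling that binds KIT, was lower by all 3 measured probes (-0.85 ± 0.12, from -0.95 to -0.71).

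Of the 15 genes for ligand processing and retention, 13 were measured, with 8 above 0, 5 below and a median of 0.20, and Pcsk5 and A2m were not well above background. Nrp1, a co-receptor of VEGF and other growth factors, differed by 0.82 ± 0.09, with its 6 measured probes spread from -0.04 to 1.39. Cspg4, the NG2 proteoglycan, which binds PDGF-AA, differed by 0.77 ± 0.13. Its brightest probe had signals of 528 and 1247 (1.24), and its other 2 probes, at 0.41 and 0.67, lay in the last 64 rows. Plau, the urokinase that can cleave PDGF-DD, was named after its values were seen, because it passes 2-fold under some settings: its probes gave -1.07 and -0.46, with a mean of -0.77 ± 0.17. Of the 19 early response genes of growth factor signalling, 6 were above 0 and 13 below, with a median of -0.12. The largest differences were those of the transcription factors Egr2, with signals of 761 and 1464 (0.94 ± 0.20), and Etv5, with 9754 and 18167 (0.90 ± 0.20). Both were thus higher while most of their list lay below 0.

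**Figure D4:**
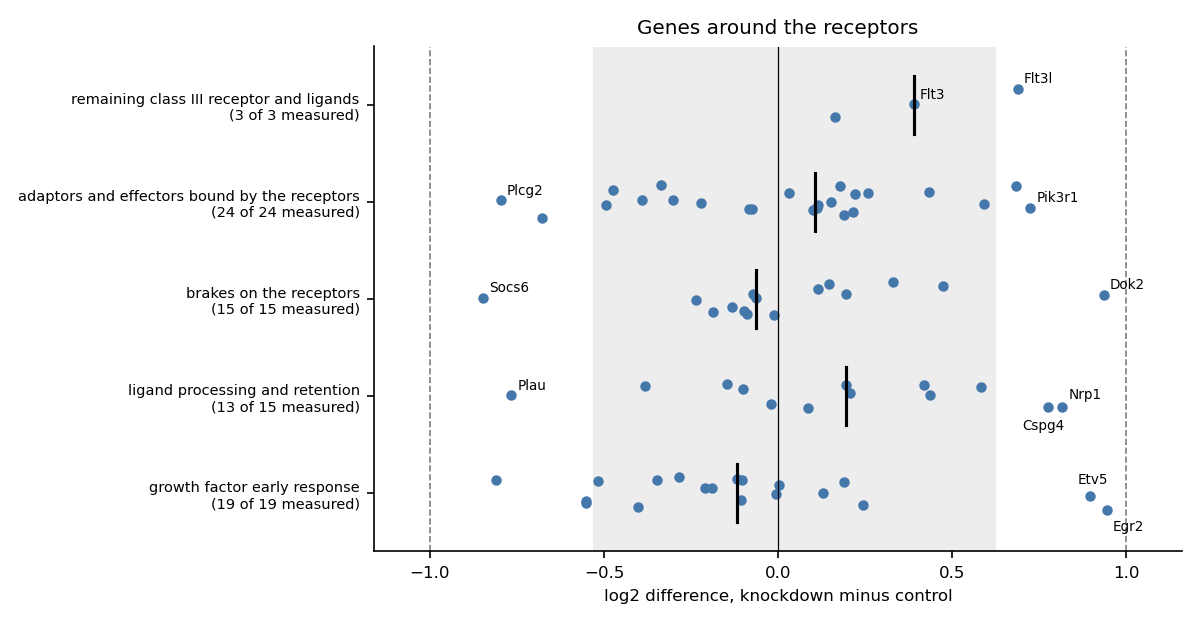
Log2 difference, knockdown minus control, of each measured gene in the 5 lists around the receptors; black bars are list medians, dashed lines mark 2-fold, the grey band spans the 10th to the 90th percentile of all measured genes (-0.53 to 0.62), and the vertical scatter has no meaning. With the values as reported no point passes 2-fold, and the medians run from -0.12 for the early response genes to 0.39 for the remaining class III receptor and ligands.

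Markers of cell types that carry these receptors were read on the same arrays, with the 10 genes themselves left out. In a bulk RNA sample fewer cells of a type and less RNA per cell cannot be told apart. Beside Pdgfrb and Pdgfra, 6 of 8 fibroblast markers were measured, and 2 of them, Fap and Col1a2, were at least 2-fold higher, against 3.67% of all measured genes. All 6 lay above 0, against 51.2% of all measured genes, with a median of 0.86, which was 0.38 without the filter on dim probes. Their summed level, in units of the array's 75th percentile, was 2.25 in the control and 5.06 in the knockdown. Fap differed by 1.64 ± 0.15. Col1a2 differed by 1.63 ± 0.19, but another Col1a2 probe gave 15.6 in the control and 2.79, not well above background, in the knockdown. Lum was at least 5.92-fold lower in the knockdown, with 76.8 against 3.21, the latter not well above background, and neither array read Postn well above background. The part of these markers' cells in the values of Pdgfrb and Pdgfra was not tested.

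The mural cell markers lay on both sides of 0. Of 15, 11 were measured, 5 above 0 and 6 below, with a median of -0.01 and a summed level of 87.8 in the control and 76.6 in the knockdown, of which Mcam alone, singled out after its values were seen, made up 62.3 and 51.7. Abcc9 and Vtn were not well above background, and Kcnj8 and Ndufa4l2 were measured in the knockdown alone, where they were at least 1.37-fold and at least 1.52-fold higher. Of the 10 oligodendrocyte precursor markers, for which Pdgfra is best known, only Cspg4 and Vcan were measured, with a summed level of 0.80 and 0.93. Olig1, Nkx2-2, Gpr17, Bcan, Ptprz1 and Lhfpl3 were read well above background by neither array. Olig2 was measured in the knockdown alone (6.28 and 53.2, at least 4.40-fold higher, with its probe in the last 64 rows) and Sox10 in the control alone (17.4 and 11.2, at least 1.34-fold lower). The part of such cells in the values of Pdgfra was not tested.

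Beside Csf1r, 10 of the 20 microglia and macrophage markers were well above background on neither array. Of 20, 9 were measured, 5 above 0 and 4 below, with a median of 0.03 and a summed level of 128 and 115, of which Siglech alone made up 116 and 99.3. The defining markers Aif1, Cx3cr1, P2ry12, Sall1, Trem2, Tyrobp, C1qa, C1qc, Ctss and Spi1 were well above background on neither array, while both Csf1r probes were on both. Fcrls was measured in the control alone, at least 1.25-fold above the knockdown. Tmem119 was the one marker of the list past 2-fold, with 32.7 and 114, a difference of 1.80 ± 0.24 that was 0.85 after normexp. Beside Kit, 6 of 13 mast cell and melanocyte markers were measured, with a median of -0.17 and a summed level of 1.11 and 0.94. Cpa3, Mcpt4, Ms4a2, Fcer1a and Tyrp1 were read well above background by neither array. Hdc and Mlana were measured in the knockdown alone, at least 5.34-fold and at least 1.35-fold higher.

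**Figure D5:**
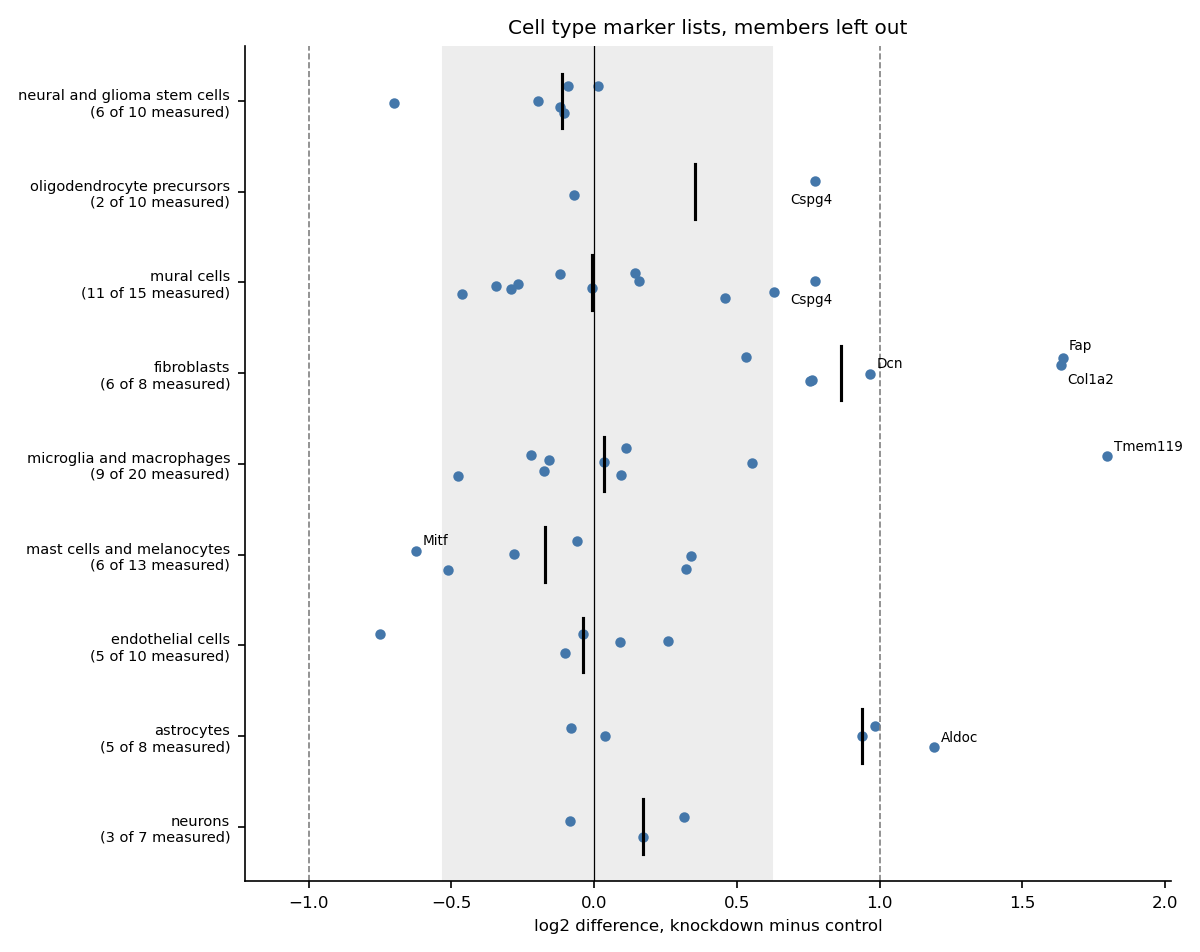
Log2 difference, knockdown minus control, of each measured marker gene in 9 cell type lists, without the receptor and ligand genes; black bars are list medians, dashed lines mark 2-fold, the grey band spans the 10th to the 90th percentile of all measured genes, and the vertical scatter has no meaning. The 6 measured fibroblast markers all lie above 0 with a median of 0.86, and the mural cell markers lie on both sides of 0 with a median of -0.01.

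The letters TTCNNNGAA, which a STAT5 dimer is known to bind, were searched in the window from 250 bases before to 50 bases after each annotated RefSeq gene start of assembly GRCm38. The motif reads the same on both strands. It was in 0 of the 9 windows that matched 7 of the 10 genes, and in 2726 of all 32851 windows (8.30%). This says only that these letters are not in those windows.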

How the data were processed

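Per the labels' protocols, total RNA was amplified, labelled with Cy3 and hybridised to 1 Agilent array per group. The deposited scanner files hold a background-corrected processed intensity per spot and 0 or 1 flags, which per the file headers come from Agilent Feature Extraction 12.1.0.3, run with protocol GE1_1200_Jun14 on a grid of build mm9. No coordinates are given, because the gene table used is of assembly GRCm38. A table deposited by the authors holds log2 values: each column equals log2 of the processed intensity minus 8.94, within 0.001 for 100% of 56294 single-spot probes, with column medians of -3.83 and -3.83.

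Here, control spots and outlier spots (112 and 94) were left out, no spot was saturated, and log2 processed intensity minus each array's 75th percentile was used, with no pseudocount. Well above background were 59.5% and 58.6% of probes. An accession named 34555 probes, a current symbol 9195 and a synonym 275, 2144 kept the symbol in the file, and 10425 stayed unnamed. Of the 24 probes, 19 were also named by accession. A gene well above background on 1 array alone was given a bound: its bright probe's level against the higher of the lowest level well above background and its own level on the other. The scripts were tested on simulated data. The number of arrays limits the precision, and with 1 per group no test was possible.

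The members and gene lists were chosen with earlier results of these data known. Named were all 10 genes, from each pathway list the genes past 2-fold or else the 2 with the largest difference, and from the cell type lists the genes past 2-fold or with no probe well above background. The alternatives were normexp (limma 3.58.1 in R 4.3.3), other scalings, the authors' table, other filters and probe choices, the last 64 rows left out, outlier spots kept and a 1.5-fold rule. Mean signals were not used here, so normexp was run on median signals and local median background. Values were computed in Python 3.11.15 with numpy 2.4.6 and pandas 2.3.3.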

Additional observations from a re-analysis of the deposited data

How the results depend on the processing

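Of 76 values of the 8 measured genes under 10 alternatives, 69 moved by less than the SD over probes of 1 gene, and 74 kept their sign. Many of these values could hardly move, so the counts are no measure of robustness. Median scaling and the authors' table shift these genes by 1 constant. Choosing among measured probes cannot change the value of a gene with only 1. Other scalings, the authors' table and kept outlier spots moved none of the 8 by more. Normexp gave 0.25 for Pdgfra, 0.74 for Pdgfrb and -0.58 for Kitl, so that 0 of the genes were higher, with 191 of all genes higher and 167 lower; its offset shrinks differences of dim probes by construction. Without the filter on dim probes Pdgfra was 0.041 and Stat5b -1.49, 1282 of all genes were higher and 1000 lower, the median of all genes was 0.10, and 1 pathway gene was lower, Dok2 at -1.69. Probes with a signal of at least 100 left out Pdgfra, Pdgfrb and Pdgfc, which gave 0 genes higher, 1 lower (Kitl, -1.04), a median of -0.54 and a Csf1 of -0.37. The brightest probe alone gave -0.37 for Csf1, 0.54 for Csf1r and 1 gene lower, Kitl at -1.24. Without the last 64 rows 1 gene was lower, Kitl at -1.04. These last 3 settings each gave 1 pathway gene higher, Cspg4 at 1.24, and 1 lower, Plau at -1.07, while RefSeq probes alone gave 2 higher, Cspg4 and Nrp1 (1.24 and 1.08). At 1.5-fold 3 of the 8 genes were higher and 2 lower, against 1805 higher and 1377 lower of all 16354 measured genes. Without the filter Col1a2 was 0.23, and the medians of the fibroblast and astrocyte lists were 0.38 and 0.27. The astrocyte median was 0.30 and Tmem119 was 0.85 with normexp, and the astrocyte median was 0.04 with the brightest probe. The shifts under the filters and probe choices follow from which probes enter. No paired analysis was possible because each group has 1 array and the labels carry no replicate numbers. Signal over background limits Pdgfra, Pdgfrb, Pdgfc, Kit and Pdgfd most.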

Other observations

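Of the other cell type lists, 5 of 8 astrocyte markers were measured, 4 of them above 0, with a median of 0.94, which was 0.04 with the brightest probe of each gene alone. Aldoc, the brain aldolase, differed by 1.19 ± 0.07, with its 3 probes between 1.10 and 1.24. S100b was measured in the knockdown alone (9.22 and 122, at least 10.1-fold higher), and Gfap in the control alone (23.2 and 15.1, at least 1.53-fold lower). Neither array read Slc1a3 well above background. Of 10 endothelial markers 5 were measured, with a median of -0.04, and Kdr, Tek, Tie1, Cldn5 and Emcn were read well above background by neither array. Of 7 neuronal markers 3 were measured, with a median of 0.17, and Rbfox3, Dcx and Syt1 likewise by neither. Of 10 neural stem cell markers 6 were measured, with a median of -0.11.

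The summed level of the microglia list rested largely on Siglech, a lectin of microglia and plasmacytoid dendritic cells, which was singled out after its values were seen. One of its 3 probes had a signal of 57098 in the control and 49039 in the knockdown, and its other 2 probes, at 8.04 and 11.1 and at 2.81 and 3.04, were not well above background.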
